A study of Rattus norvegicus with 45 samples.

Results

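Atp2b2, Hcn2 and Scn3a are 3 of the 32883 genes in the deposited table, and each was read in the ventral tegmental area (VTA) of 44 rats in 6 groups. Atp2b2 (ENSRNOG00000030269, rn6 chromosome 4, 145703045 to 146016325, minus strand) encodes a plasma membrane pump that carries calcium out of the cell. Hcn2 (ENSRNOG00000008831, rn6 chromosome 7, 12851738 to 12874215, minus strand) encodes a channel opened by hyperpolarization and sensitive to cyclic AMP. Scn3a (ENSRNOG00000005007, rn6 chromosome 3, 51532626 to 51643140, minus strand) encodes the pore-forming subunit of a voltage-gated sodium channel. All are annotated as protein coding, and reads were counted per gene. The genes were chosen by their readouts in these rats. Atp2b2 was selected on heroin vs. saline in empty vector rats and Hcn2 on H3.3Q5A vs. H3.3 WT in heroin rats. All 3 also had to stand in the readable, first 1998 rows of a name table ordered by p-value in H3.3 WT vs. empty saline rats. Values in those contrasts, and in interactions built from them, are therefore given as descriptions with no test.

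Male Sprague-Dawley rats, wild-type and with no stated age, self-administered heroin or saline for 10 d. On day 11 a vector was infused into the VTA, and tissue was taken at day 30 of abstinence. All vectors carried GFP. The empty vector (labelled GFP) added nothing else, the H3.3 WT vector added wild-type histone H3.3, and H3.3Q5A added H3.3 with glutamine at position 5 replaced by alanine, which cannot be dopaminylated. The groups were saline empty (n = 7), saline H3.3 WT (n = 7), saline H3.3Q5A (n = 7), heroin empty (n = 8), heroin H3.3 WT (n = 7) and heroin H3.3Q5A (n = 8). Every group had surgery and a virus. The study's methods describe adeno-associated virus, the submitters' design text a lentivirus, and neither names a promoter. PolyA RNA came from 2 mm punches of GFP-lit tissue, so infected and uninfected cells of all types were pooled. In such bulk samples fewer cells of a type and less RNA per cell cannot be told apart.

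Neurons fire action potentials when sodium channels open, and the speed and regularity of firing depend on what brings the membrane back toward threshold. HCN channels pass an inward current at negative potentials and are known as pacemaker channels, also in midbrain dopamine neurons. Plasma membrane calcium pumps clear the calcium that enters with each spike. Scn3a is known as a sodium channel gene of the developing brain whose expression falls as neurons mature.

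The RefSeq promoters are shown because Atp2b2 and Hcn2 moved opposite to Scn3a in the values that follow, and the sequences let their base composition be compared. Each is the 250 bases before the RefSeq start in GRCr8, 5′ to 3′ on the gene's strand, and capitals mark GC boxes (GGGCGG or CCGCCC, either strand).
Atp2b2, GRCr8 chr4:148763654-148763903, minus strand: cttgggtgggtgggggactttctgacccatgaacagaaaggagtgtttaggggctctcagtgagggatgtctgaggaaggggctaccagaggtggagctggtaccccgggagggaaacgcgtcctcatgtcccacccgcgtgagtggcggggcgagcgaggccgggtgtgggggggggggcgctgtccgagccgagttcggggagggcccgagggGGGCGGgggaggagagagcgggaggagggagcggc
Hcn2, GRCr8 chr7:10639458-10639707, minus strand: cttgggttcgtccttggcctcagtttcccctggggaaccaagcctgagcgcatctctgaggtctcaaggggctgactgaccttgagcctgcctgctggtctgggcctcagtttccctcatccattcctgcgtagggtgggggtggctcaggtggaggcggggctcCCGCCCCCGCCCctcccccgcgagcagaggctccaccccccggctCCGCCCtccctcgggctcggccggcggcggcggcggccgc
Scn3a, GRCr8 chr3:70666199-70666448, minus strand: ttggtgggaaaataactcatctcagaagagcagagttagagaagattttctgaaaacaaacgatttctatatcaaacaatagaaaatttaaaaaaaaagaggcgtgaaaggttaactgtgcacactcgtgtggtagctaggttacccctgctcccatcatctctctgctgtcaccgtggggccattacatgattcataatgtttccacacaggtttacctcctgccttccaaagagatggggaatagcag
The Atp2b2 window had 69.2% G and C, 17 CpG dinucleotides and 1 GC box. The Hcn2 window had 71.6% G and C, 18 CpG and 3 GC boxes. The Scn3a window had 41.6% G and C, 4 CpG and no GC box. Over all 33469 windows of this length the median was 51.2% G and C and 5 CpG, and 30.5% held a GC box. A TATA box (TATAAA, 12.9% of windows, both strands) and a half-site of the cyclic AMP response element (TGACG, 18.2% of windows, both strands) were found in none of the 3. No binding or methylation was measured here, so these letters describe the sequences alone.

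The values used are the authors' variance-stabilized counts, close to a log2 scale, so a difference of 1 is close to a doubling at these levels. Each rat had between 24308953 and 71104049 reads on genes (median 42574786). The members were read deeply, with 11539 to 43450 reads on Atp2b2, 3613 to 18394 on Hcn2 and 1810 to 6367 on Scn3a, so counting error was small beside the spread between rats. By mean value Atp2b2 lay above 99.1% of the 22570 genes tested, Hcn2 above 95.9% and Scn3a above 86.4%. Saline empty rat 18 and heroin H3.3 WT rat 11 stood apart from their groups, each high for Atp2b2 and low for Scn3a, and results that turn on them are given with and without them. Rats are the replicates throughout.

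Among saline rats, Atp2b2 had deposited values from 13.91 to 14.47 with a median of 14.03 in the empty group. In saline H3.3 WT rats the values ran from 14.03 to 14.60 with a median of 14.42. In saline H3.3Q5A rats they ran from 14.54 to 14.77 with a median of 14.69, the narrowest spread of the 6 groups. Every saline H3.3Q5A rat lay above every saline empty rat, while the H3.3 WT rats overlapped both. The saline empty rats entered the contrast that chose Atp2b2. Among heroin rats, the empty group ran from 14.20 to 15.08 with a median of 14.61. Heroin H3.3 WT rats ran from 14.41 to 15.12 with a median of 14.67. Heroin H3.3Q5A rats ran from 13.86 to 14.64 with a median of 14.31, and were the lowest of the heroin groups. By group mean the pump gene rose from saline empty (14.09 ± 0.184, SD) through heroin H3.3Q5A (14.26 ± 0.246), saline H3.3 WT (14.36 ± 0.211), heroin empty (14.62 ± 0.271) and saline H3.3Q5A (14.67 ± 0.092) to heroin H3.3 WT (14.68 ± 0.220).

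Hcn2 ran from 12.26 to 13.29 with a median of 12.61 in saline empty rats. It ran from 12.65 to 13.72 with a median of 13.08 in saline H3.3 WT rats. In saline H3.3Q5A rats the values were 13.20 to 13.78 with a median of 13.34. As for Atp2b2, the saline H3.3Q5A rats were high and close together, but saline empty rat 18 lay among them. In heroin rats the channel gene ran from 12.57 to 13.64 with a median of 13.11 in the empty group. Heroin H3.3 WT rats ran from 12.99 to 13.76 with a median of 13.47. Heroin H3.3Q5A rats ran from 12.11 to 13.45 with a median of 12.65. Of these rats 7 lay below every heroin H3.3 WT rat, in the contrast on which Hcn2 was chosen. The order of means was saline empty (12.70 ± 0.316), heroin H3.3Q5A (12.73 ± 0.392), heroin empty (13.02 ± 0.356), saline H3.3 WT (13.17 ± 0.388), heroin H3.3 WT (13.35 ± 0.333) and saline H3.3Q5A (13.39 ± 0.192).

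Scn3a was ordered nearly the other way. Its values ran from 11.51 to 12.12 with a median of 11.96 in saline empty rats. They ran from 11.40 to 11.77 with a median of 11.67 in saline H3.3 WT rats. In saline H3.3Q5A rats they ran from 11.22 to 11.82 with a median of 11.61. Without rat 18, the other 6 saline empty rats (11.89 to 12.12) all lay above the other saline groups. Saline H3.3 WT vs. empty is the contrast that ordered the name table. In heroin rats the sodium channel gene ran from 11.36 to 12.11 with a median of 11.67 in the empty group. Heroin H3.3 WT rats ran from 11.13 to 11.76 with a median of 11.64. Heroin H3.3Q5A rats ran from 11.42 to 11.99 with a median of 11.84, and the groups overlapped. The means rose from heroin H3.3 WT (11.58 ± 0.214) through saline H3.3Q5A (11.60 ± 0.197), saline H3.3 WT (11.65 ± 0.141), heroin empty (11.73 ± 0.259) and heroin H3.3Q5A (11.80 ± 0.190) to saline empty (11.92 ± 0.203). For none of the 3 genes did neighbours in this order differ by more than the larger SD of the pair.

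**Figure D1:**
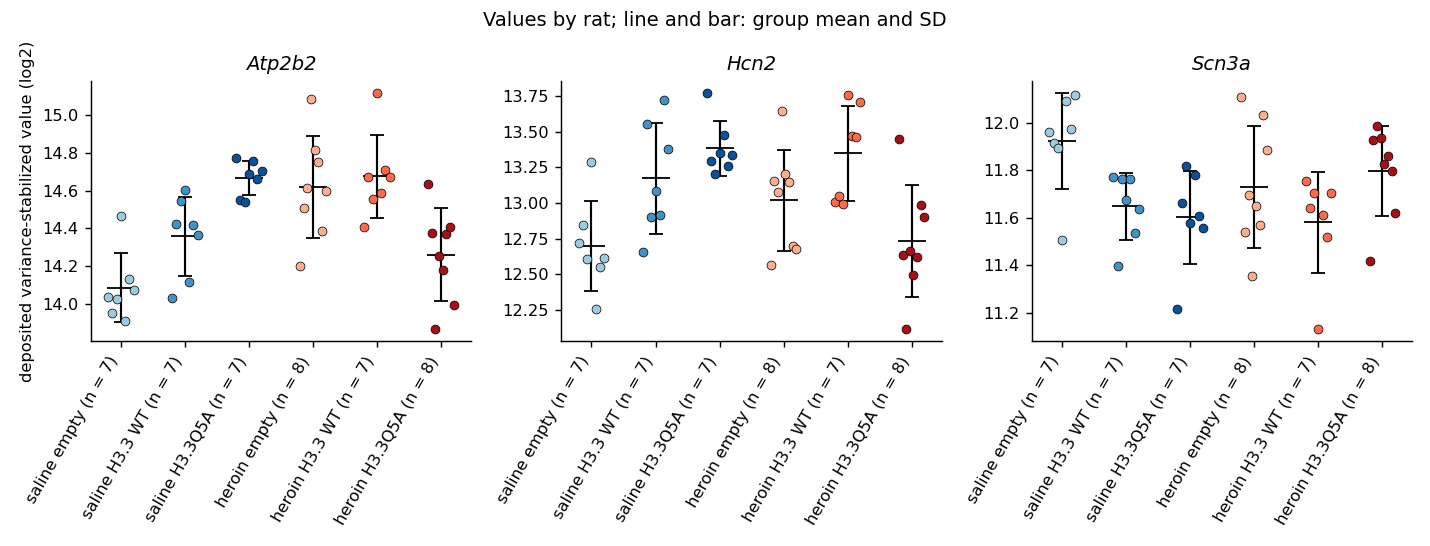
Deposited variance-stabilized value (log2 scale, vertical axis) of each rat in the 6 groups (horizontal axis), with a panel for each gene, points for rats, and line and bar for the group mean and SD. Saline H3.3Q5A rats sit high and close together for Atp2b2 (14.54 to 14.77) and Hcn2, and rat 18 of the saline empty group stands at the top for Atp2b2 (14.47) and at the bottom for Scn3a (11.51).

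The first question was what heroin changed under each vector, tested across all 22570 genes with limma and called DEx at an adjusted p under 0.05 with a log2 fold change beyond 0.2. In empty rats Atp2b2 was 0.53 higher after heroin (standard error, SE, 0.11) on the log2 scale. It was chosen on this contrast, 8 of 8 heroin rats lay above the saline mean, and 35 genes (0.155%) were DEx. Hcn2 differed by 0.32 (SE 0.17, adjusted p = 0.298 by limma) and Scn3a by -0.19 (SE 0.10, adjusted p = 0.309), so neither was DEx. In H3.3 WT rats, where 2.75% of genes were DEx, no member was. The heroin differences there were 0.32 for Atp2b2 (SE 0.11, adjusted p = 0.120 by limma, 7 of 7 heroin rats above the saline mean), 0.18 for Hcn2 (adjusted p = 0.661) and -0.07 for Scn3a (adjusted p = 0.805). Without saline H3.3 WT rat 27 the Atp2b2 difference was 0.36 with an adjusted p of 0.0487 by limma. Of 44 single-rat omissions only this 1 gave an Atp2b2 call, and the adjusted p reached 0.312. Without heroin H3.3 WT rat 11 the Scn3a difference was 0.01. The saline H3.3 WT rats here, and the saline empty rats before, also entered the contrast that ordered the name table. The heroin H3.3 WT rats here also entered the contrast that chose Hcn2.

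In H3.3Q5A rats the heroin differences had the opposite sign. Atp2b2 was lower by 0.41 on the log2 scale (95% interval -0.62 to -0.19, adjusted p = 0.0532 by limma). All 8 heroin rats lay under the saline mean and 7 of them under every saline rat. Hcn2 was lower by 0.65 (95% interval -0.99 to -0.32, adjusted p = 0.0524 by limma), with 7 of 8 heroin rats below every saline rat. Scn3a was 0.20 higher (95% interval -0.01 to 0.40, adjusted p = 0.285 by limma), in 7 of 8 rats. Here 0.505% of genes were DEx and no member was, though both larger differences lay next to the threshold. With both far-lying rats left out, which belong to other groups and enter through the common variance, the adjusted p was 0.0295 for Atp2b2 and 0.0297 for Hcn2 by limma. Leaving out any of saline empty rat 18, saline H3.3 WT rats 4, 27 or 44, heroin empty rats 2 or 7, heroin H3.3 WT rat 11 and heroin H3.3Q5A rats 21 or 40 put Atp2b2 and Hcn2 past it, as did saline empty rat 22 and saline H3.3 WT rat 8 for Hcn2, with adjusted p from 0.00901 to 0.0493 by limma. These were 9 of 44 single-rat omissions for Atp2b2 and 11 of 44 for Hcn2. In the others neither gene passed, and the adjusted p reached 0.154 by limma for both. This contrast shares no rat with those that chose Atp2b2, and for Hcn2 it shares the heroin H3.3Q5A rats.

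The difference between the heroin differences was then tested directly. For Atp2b2 the heroin difference in H3.3Q5A rats was 0.72 below that in H3.3 WT rats (log2 interaction -0.72, SE 0.15, adjusted p = 0.00212 by limma). Here 7.93% of all genes were DEx, and 11.1% of the 1995 other tested genes with a readable name. With each rat left out in turn the Atp2b2 interaction stayed between -0.78 and -0.65 with adjusted p up to 0.00601 by limma. Without both far-lying rats it was -0.65 (adjusted p = 0.00375). It shares the saline H3.3 WT rats with the contrast that ordered the name table. For Hcn2 the heroin difference in H3.3Q5A rats was 0.98 below that in empty rats (log2 interaction -0.98, SE 0.24, adjusted p = 0.0053 by limma). There 14% of all genes were DEx, and 25.8% of the other named genes. Leaving out single rats gave -1.08 to -0.89 with adjusted p up to 0.0122 by limma. It shares the heroin H3.3Q5A rats with the contrast that chose Hcn2 and the saline empty rats with the one that ordered the name table. The Scn3a interactions had the other sign and were not DEx, at 0.39 against empty (SE 0.14, adjusted p = 0.063 by limma) and 0.26 against H3.3 WT (SE 0.15, adjusted p = 0.313). The former passed the threshold without saline empty rat 18 (0.46, adjusted p = 0.0188 by limma). It likewise passed without saline H3.3Q5A rat 31, heroin empty rat 2 or 16, heroin H3.3 WT rat 11 or heroin H3.3Q5A rat 21, with adjusted p up to 0.0455. These were 6 of 44 single-rat omissions, and over all of them the adjusted p reached 0.128 by limma. With the contrast that ordered the name table, the Scn3a interaction against empty shares the saline empty rats. That against H3.3 WT shares its saline H3.3 WT rats. As descriptions, the interaction was -0.94 against empty for Atp2b2 and -0.83 against H3.3 WT for Hcn2.

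**Figure D2:**
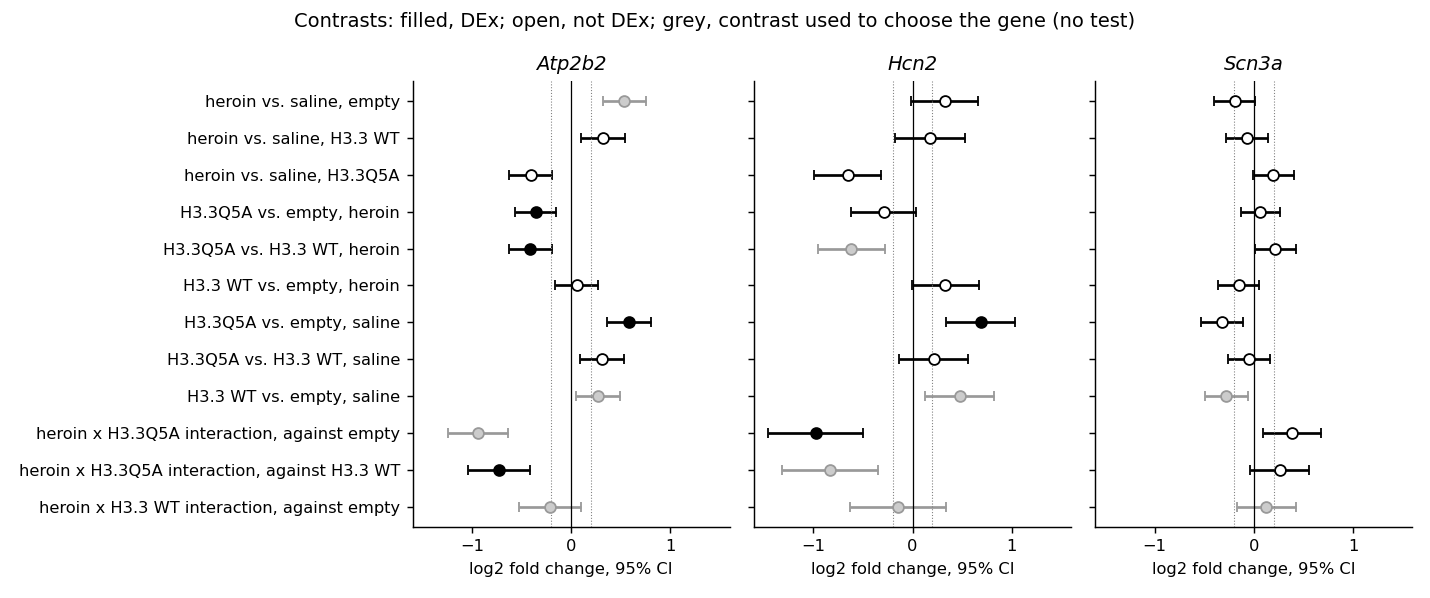
Log2 fold change (horizontal axis, with 95% intervals) of each gene in 12 contrasts (rows). Filled points are DEx, open points were tested and not DEx, grey points are contrasts that chose the gene, and dotted lines mark log2 fold changes of 0.2 and -0.2. Atp2b2 and Hcn2 lie on the same side of 0 in each row, with interactions from -0.98 to -0.72 where H3.3Q5A is involved, and Scn3a lies on the other side.

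The next question was what H3.3Q5A changed in heroin rats. Against heroin H3.3 WT, Atp2b2 fell by 0.41 on the log2 scale (SE 0.11, adjusted p = 0.0267 by limma), with 8 of 8 H3.3Q5A rats below the H3.3 WT mean, in a contrast with 2.71% of genes DEx that shares no rat with those that chose this gene. The call was lost without heroin H3.3 WT rat 11 (-0.34, adjusted p = 0.106 by limma), without heroin H3.3 WT rat 38 and without heroin H3.3Q5A rat 25, 26, 37 or 43, with adjusted p of 0.0526 or more, and in a fit of the compared groups alone (adjusted p = 0.0956). In the same contrast Hcn2 was 0.62 lower (SE 0.17), which is how it was chosen, and Scn3a was 0.22 higher (SE 0.10, adjusted p = 0.258). Against heroin empty, where 3.21% of genes were DEx, Atp2b2 fell by 0.36 (SE 0.10, adjusted p = 0.0415 by limma), with 7 of 8 rats below the empty mean. The heroin empty rats in this contrast are those whose high level chose the gene, so the difference is not independent of that choice. This call was lost without heroin empty rat 6, 7, 13 or 14 or heroin H3.3Q5A rat 25, 26, 37, 39 or 43, with adjusted p from 0.0511 to 0.141 by limma, and with 6 other settings. Hcn2 differed by -0.29 (95% interval -0.62 to 0.04, adjusted p = 0.326 by limma) and Scn3a by 0.07 (-0.13 to 0.27, adjusted p = 0.775). For Hcn2 the heroin H3.3Q5A rats here are those whose low level chose it, so this value is not independent of that choice either. H3.3 WT vs. empty in heroin rats gave 0.06 for Atp2b2 (95% interval -0.16 to 0.27, adjusted p = 0.949 by limma), 0.33 for Hcn2 (-0.01 to 0.67, adjusted p = 0.863) and -0.15 for Scn3a (-0.36 to 0.06, adjusted p = 0.863). This contrast shares the heroin empty rats with the one that chose Atp2b2 and the heroin H3.3 WT rats with the one that chose Hcn2.

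In saline rats the vector difference ran the other way. H3.3Q5A vs. empty raised Atp2b2 by 0.58 on the log2 scale (SE 0.11, adjusted p = 0.0123 by limma), with 7 of 7 rats above every empty rat. Hcn2 rose by 0.69 (SE 0.17, adjusted p = 0.0208 by limma), with 7 of 7 rats above the empty mean. Scn3a was 0.32 lower (SE 0.11, adjusted p = 0.0586 by limma), with 7 of 7 rats below the empty mean, and was not DEx. This contrast had 4.94% of genes DEx, but it uses the saline empty rats of the contrast that ordered the name table and, for Atp2b2, of the one that chose it, and 20.9% of the 1995 other tested genes with a readable name were DEx in it. The Atp2b2 call held with every single rat left out (adjusted p up to 0.0379 by limma). That of Hcn2 was lost without saline empty rat 15 or 22 or saline H3.3Q5A rat 28 (adjusted p from 0.0515 to 0.0629 by limma). Scn3a became DEx without saline empty rat 18 (-0.39, adjusted p = 0.0134 by limma). It also did so without saline H3.3Q5A rat 31, heroin empty rat 2 or 7, heroin H3.3 WT rat 11 or heroin H3.3Q5A rat 21 (adjusted p up to 0.0474). These were 6 of 44 single-rat omissions, and over all of them its adjusted p reached 0.168 by limma. H3.3Q5A vs. H3.3 WT gave 0.31 for Atp2b2 (95% interval 0.09 to 0.53, adjusted p = 0.209 by limma), 0.21 for Hcn2 (-0.14 to 0.56, adjusted p = 0.683) and -0.05 for Scn3a (-0.26 to 0.17, adjusted p = 0.909), where 0.00886% of genes were DEx. It uses the saline H3.3 WT rats of the contrast that ordered the name table. H3.3 WT vs. empty, used to order the name table, differed by 0.27 for Atp2b2, 0.48 for Hcn2 and -0.28 for Scn3a.

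The genes also moved together from rat to rat within groups. After each group mean was subtracted, Atp2b2 and Hcn2 had a Pearson r of 0.72 and a Spearman rho of 0.63 over the 44 rats (n = 44, permutation p = 1e-05 for r, the smallest that 100000 permutations can give, adjusted 1e-05 over 3 pairs, and adjusted p = 9e-05 for rho). Atp2b2 and Scn3a had r = -0.69 and rho = -0.57 (permutation p = 1e-05 and 0.00017, the same after adjustment). Hcn2 and Scn3a had r = -0.82 and rho = -0.79 (permutation p = 1e-05 for both, adjusted 1e-05 and 3e-05). The sign was the same within every group, with r from 0.45 to 0.89 for the first pair, -0.95 to -0.36 for the second and -0.96 to -0.63 for the third. Leaving out the 2 rats farthest out gave 0.67, -0.60 and -0.77, and removing the log2 read total gave 0.72, -0.70 and -0.83. Median centring gave 0.74, -0.59 and -0.80. In 5 of the 6 groups a single rat had the highest Atp2b2, the highest Hcn2 and the lowest Scn3a, namely saline empty rat 18, saline H3.3Q5A rat 28, heroin empty rat 7, heroin H3.3 WT rat 11 and heroin H3.3Q5A rat 21.

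**Figure D3:**
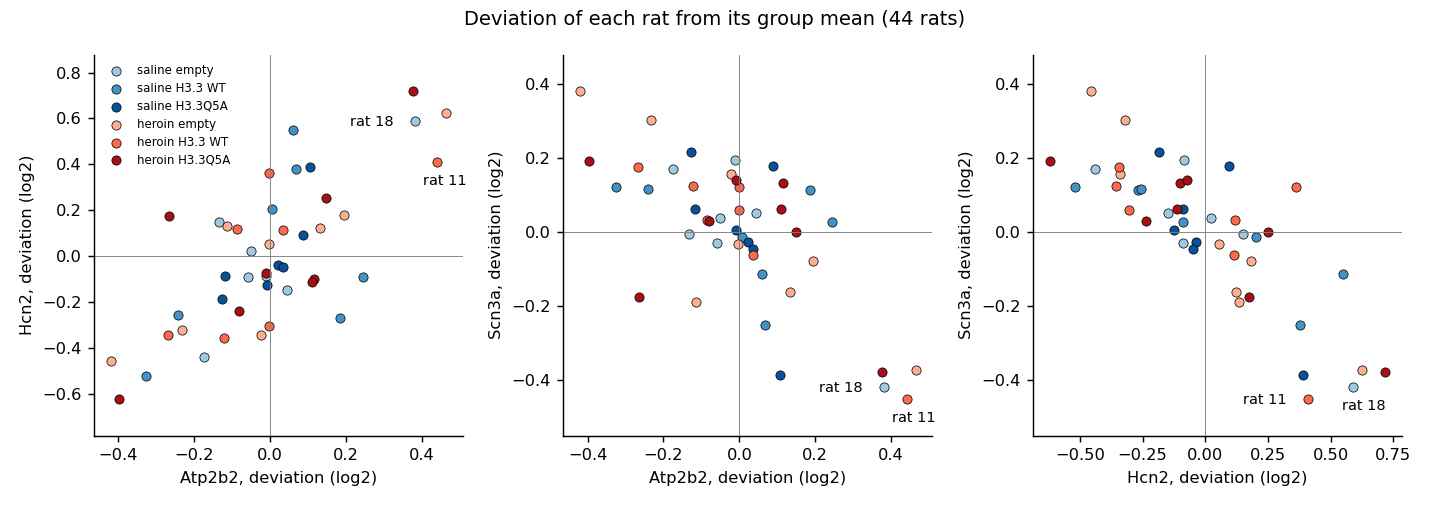
Deviation of each rat from its group mean (both axes, log2 scale) for the 3 pairs of genes, with 1 point a rat coloured by group and the far-lying rats labelled. Atp2b2 and Hcn2 rise together (r = 0.72), and both fall as Scn3a rises (r = -0.69 and -0.82).

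Such likeness was shared with many other genes. The median absolute r over all other tested genes was 0.195 for Atp2b2, 0.230 for Hcn2 and 0.213 for Scn3a, and 2.26%, 4.27% and 3.75% of them were beyond 0.7 in absolute value. For Atp2b2 and Hcn2, 1.61% of all genes were as strongly correlated with Atp2b2 as Hcn2 was, and 3.41% as strongly with Hcn2 as Atp2b2 was. For Atp2b2 and Scn3a the shares were 2.45% with Atp2b2 and 4.03% with Scn3a, and for Hcn2 and Scn3a they were 1.07% with Hcn2 and 0.563% with Scn3a. Among genes with a readable name, those most like Atp2b2 were Cplx1, which encodes complexin, a regulator of vesicle fusion (r = 0.88), Tmem221 (0.87) and Rnf157 (0.86), and those most unlike it were Bpifa1 (-0.81), Zcchc12 (-0.78) and Ppp1r17 (-0.78). For Hcn2 they were Panx2, a pannexin (r = 0.93), Tmcc2 (0.92) and the netrin receptor gene Unc5b (0.91), against N4bp2l1 (-0.87), Prkar2b, a regulatory subunit of the cyclic AMP-dependent kinase (-0.86), and Bbs7 (-0.86). For Scn3a they were Nexmif (r = 0.94), Fnbp1l (0.91) and Pnma8a (0.91), against the ubiquitin ligase gene Marchf2 (-0.91), Tmem221 (-0.87) and Phospho1 (-0.86).

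Of 119 further genes of excitability on hand-written lists (calcium pumps and buffers, HCN, sodium, potassium and calcium channels), 9 had a readable name and were tested. No other calcium pump, no calcium buffer and no voltage-gated calcium channel was among them. All 9 owe their names to the table ordered by H3.3 WT vs. empty in saline rats, so they are not a sample of their families. Pex5l, which encodes a partner of HCN channels, followed Hcn2 (r = 0.63) and Atp2b2 (r = 0.74). Scn9a, another pore-forming sodium channel subunit gene, followed Scn3a (r = 0.86), as did the sodium leak channel gene Nalcn (r = 0.86). Scn7a, from the same sodium channel list, had r = 0.37 with Scn3a, and Fgf11, a relative of the fibroblast growth factors whose product binds sodium channels, had r = -0.80 with it. Kcnj11, an inward rectifier opened when ATP is low, had r = 0.85 with Atp2b2 and -0.78 with Scn3a.

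**Figure D4:**
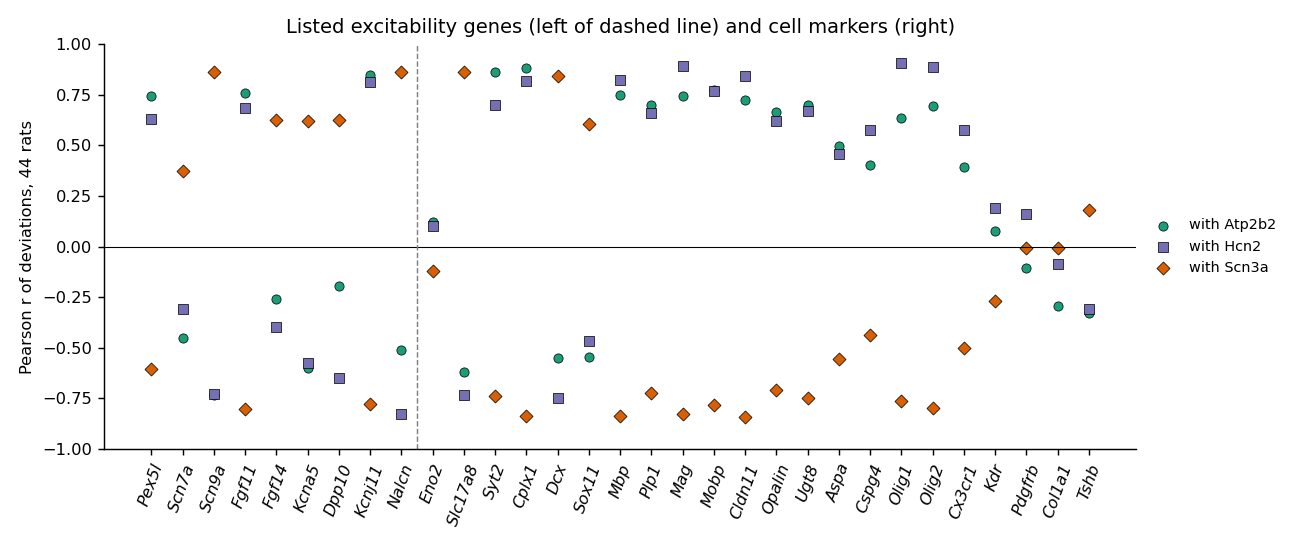
Pearson r of deviations over 44 rats (vertical axis, from -1 to 1) of the listed genes with a readable name (horizontal axis) with Atp2b2 (circles), Hcn2 (squares) and Scn3a (diamonds), with excitability genes left of the dashed line and cell markers right of it. Circles and squares lie on one side and diamonds on the other for all genes but Pdgfrb and Col1a1, for example Kcnj11 at 0.85, 0.81 and -0.78.

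In H3.3Q5A vs. empty saline rats, 2 of the 9 rose, Pex5l by 0.63 and Kcnj11 by 0.42 (adjusted p = 0.0288 and 0.020 by limma), and none of them fell, with a median log2 fold change of -0.10 beside -0.01 over all genes and 20.9% of the other named genes DEx. In the interaction against empty, 2 of the 9 were DEx upward and 3 downward, with a median of 0.10 beside 0.02. Downward were Pex5l (-0.96), Fgf11 (-0.98) and Kcnj11 (-0.66), and upward were Scn9a (1.27) and the potassium channel gene Kcna5 (1.07). Of the 1995 other genes with a readable name, 25.8% were DEx in this interaction. Against H3.3 WT, Kcna5 (0.80, adjusted p = 0.0478 by limma) was DEx upward, Pex5l (-0.78) and Kcnj11 (-0.51) downward, and Scn9a had 0.87 (adjusted p = 0.119), with a median of -0.04 beside 0.01 over all genes and 11.1% of the other named genes DEx. In heroin vs. saline under any vector, and in H3.3Q5A vs. either control in heroin rats, the lowest adjusted p of the 9 by limma lay between 0.0519 (Fgf11, H3.3Q5A vs. empty) and 0.248 (Kcna5 in H3.3 WT rats).

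**Figure D5:**
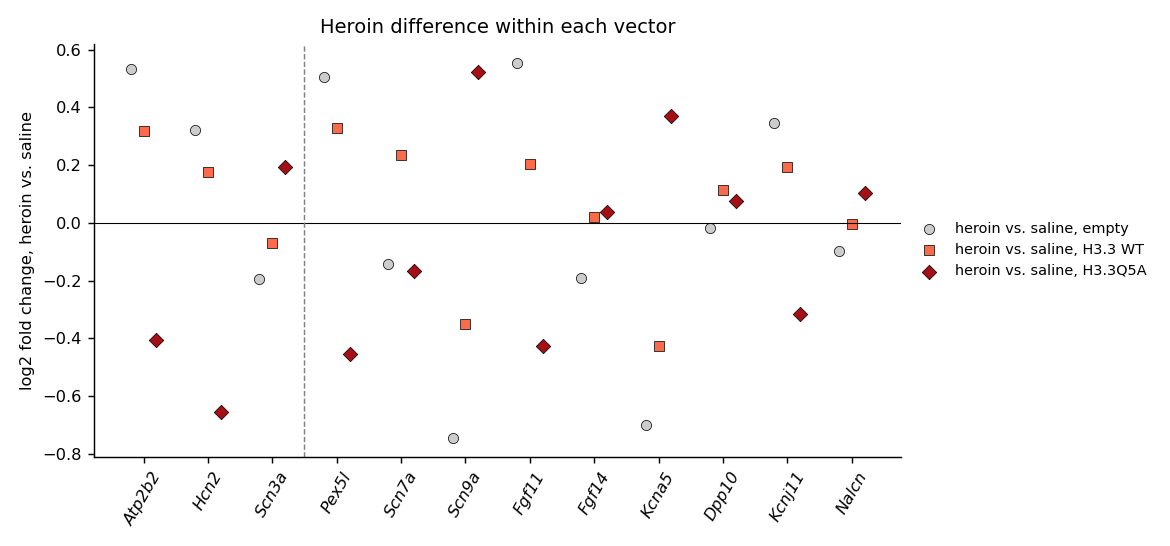
Log2 fold change of heroin vs. saline (vertical axis) in empty (circles), H3.3 WT (squares) and H3.3Q5A rats (diamonds) for the 3 genes (left of the dashed line) and 9 listed excitability genes. Atp2b2 stands at 0.53, 0.32 and -0.41, and Pex5l, Fgf11 and Kcnj11 have the same order, with Scn9a and Kcna5 reversed.

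Markers of cell types moved with the members. Of 12 myelin genes 8 could be named, none was at 0, and their summed scaled reads (reads divided by the library's size factor) were lowest by median in heroin H3.3Q5A rats (628850, range 426554 to 1053138) and saline empty rats (630565, range 505801 to 1145360). Next came saline H3.3 WT (829082, range 482770 to 1210744), heroin empty (951341, range 576979 to 1257894) and heroin H3.3 WT (956716, range 745718 to 1495271), and saline H3.3Q5A was highest (1045969, range 825822 to 1245590). Its range did not reach below the median of the lowest 2 groups. The deviations of this sum had r = 0.74 with Atp2b2, 0.77 with Hcn2 and -0.80 with Scn3a, and all 5 rats with the extreme member values had the highest myelin sum of their group. Myelin's part in the member results was not tested. The myelin basic protein gene Mbp changed by 0.71 in H3.3Q5A vs. empty saline rats (adjusted p = 0.0278 by limma) and by -1.12 in the interaction against empty (adjusted p = 0.0045).

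The precursor markers Olig1, Olig2 and Cspg4 (3 of 4 named) had a summed r of 0.65, 0.91 and -0.77 with Atp2b2, Hcn2 and Scn3a. Olig1 and Olig2 are also expressed in mature oligodendrocytes, and Cspg4 alone had 0.40, 0.58 and -0.44 and was not DEx in any of the 12 contrasts by limma. Olig1 was DEx in heroin vs. saline H3.3Q5A rats (-0.56, adjusted p = 0.0491 by limma). In H3.3Q5A vs. empty saline rats Olig1 rose by 0.61 (adjusted p = 0.0176 by limma) and Olig2 by 0.59 (adjusted p = 0.0158). Their interactions against empty were -0.87 (adjusted p = 0.00378 by limma) and -0.81 (adjusted p = 0.00377). Against H3.3 WT they were -0.59 (adjusted p = 0.0628 by limma) and -0.67 (adjusted p = 0.0199). Syt2 and Cplx1, from 8 markers of large or fast-firing neurons, had a summed r of 0.89, 0.80 and -0.83 with Atp2b2, Hcn2 and Scn3a. Their summed scaled reads had the lowest median in saline empty rats (15518), then in heroin H3.3Q5A (21502), saline H3.3 WT (31900), heroin H3.3 WT (34006), heroin empty (35735) and saline H3.3Q5A rats (37129). Dcx and Sox11, from 6 markers of immature neurons, had -0.60, -0.74 and 0.86. Slc17a8, the only gene named from 3 markers of glutamate neurons, had -0.61, -0.74 and 0.87. It had 46 to 349 scaled reads across rats and does not stand for the other markers of that list. The microglial gene Cx3cr1 (1 of 7 named) had 0.39, 0.57 and -0.50. It changed by 0.49 in H3.3Q5A vs. empty saline rats (adjusted p = 0.0201 by limma) and by -0.50 in the interaction against empty (adjusted p = 0.0369). The pan-neuronal gene Eno2 (1 of 7 named) had r of 0.12, 0.11 and -0.12, at 697 to 1639 scaled reads across rats. The vascular genes Kdr and Pdgfrb (2 of 6 named) had -0.04, 0.19 and -0.11. Col1a1 of fibroblasts (1 of 5 named) had -0.29, -0.08 and -0.02. These genes were weakly related to the 3 members within groups and do not stand for the other markers of their lists. Between groups Col1a1 was DEx in contrasts that also give Atp2b2 results. It was 1.55 higher on the log2 scale in H3.3Q5A vs. H3.3 WT heroin rats (adjusted p = 0.0159 by limma) and 1.18 higher in H3.3Q5A vs. empty heroin rats (adjusted p = 0.0481). It fell by 1.91 in heroin vs. saline H3.3 WT rats (adjusted p = 0.00315 by limma), and the interactions were 2.82 against H3.3 WT (adjusted p = 0.000657) and 1.56 against empty (adjusted p = 0.0356). Kdr rose by 0.43 in H3.3Q5A vs. empty heroin rats (adjusted p = 0.026 by limma), and Pdgfrb changed by -0.38 in heroin vs. saline H3.3 WT rats (adjusted p = 0.0435) and by 0.48 in the interaction against H3.3 WT (adjusted p = 0.044). Pituitary Tshb (1 of 4 named), which reached 3112 scaled reads in saline empty rat 15 against a group median of 49.7, had r of -0.38, -0.36 and 0.23. The parts of these cells in the results were not tested. None of the 11 dopamine neuron, 3 GABA neuron or 7 astrocyte markers could be named, nor those of serotonin and cholinergic, hypothalamic or ependymal cells, so the dopamine identity of the tissue was not checked here.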

How the data were processed

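PolyA RNA of VTA punches was sequenced by the authors, aligned to Rnor_6.0 (rn6) with HISAT2 2.1.0, counted with featureCounts 2.0.1 and normalized with DESeq2 2.11.40.6, per the submitters' processing notes. What the authors deposited, for 45 libraries and 32883 genes, are log2-like values from a variance-stabilizing transformation of counts, with a lowest value of 5.73 for 0 reads. Undoing the transformation gave whole reads for 100% of values up to 10000 reads (tolerance 0.05), and scaled reads are these divided by the size factor. Of the 45 libraries, 44 were grouped by their labels, and 1 saline library with conflicting labels stayed out.

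Values were fitted in R 4.3.3 with limma 3.58.1 over all 6 groups, with an intensity trend and Benjamini-Hochberg adjustment, on 22570 genes (over the lowest value in 7 or more grouped libraries). Contrasts were 12. The study tested pairwise with RUVr factors, whose number its text does not give, and residual factors were run as alternatives. The genes and lists were chosen with earlier results of these data known. Genes named were the 3 members, listed genes (1 of them is not reported here) and, for each member, the 3 most and least correlated named genes. Names came from the 1998 readable rows of the authors' name table, whose columns of fold changes and p-values were not used. Promoters came from RefSeq (GRCr8, all 3 matched by symbol) and are not on rn6 coordinates. Levels were not compared between genes, since exon lengths were not used here. Alternatives were gene filters, median centring, quantile normalization, voom, array weights, 1 or 3 residual factors, the read total as covariate, the groups compared alone, both readings of the further library and each rat left out; leaving out both far-lying rats was added after seeing the data.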

Additional observations from a re-analysis of the deposited data

Results flagged for a closer look

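Within groups of 7 or 8 rats, 4 of 18 group values had an end rat far from the others by Dixon's criterion, where chance gives about 0.9 of 18. The 18 are not independent, since the genes moved together within groups. All 4 came from saline empty rat 18 and heroin H3.3 WT rat 11, each flagged for Atp2b2 and for Scn3a. Saline empty rat 18 had an Atp2b2 value of 14.47, against 13.91 to 14.13 in the other 6 rats. The same rat had a Scn3a value of 11.51, against 11.89 to 12.12 in the others. Heroin H3.3 WT rat 11 had an Atp2b2 value of 15.12, against 14.41 to 14.71 in the other 6 rats. Its Scn3a value was 11.13, against 11.52 to 11.76 in the others. Both rats had the highest summed myelin markers of their groups, 1145360 scaled reads in rat 18 and 1495271 in rat 11, and the part of myelin in these values was not tested.

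The heroin difference differed between vectors by a direct test in 2 cases. For Hcn2 the heroin by H3.3Q5A interaction with empty as control was -0.98 on the log2 scale (adjusted p = 0.0053 by limma), and for Atp2b2 that against H3.3 WT was -0.72 (adjusted p = 0.00212). Of all genes, 14% and 7.93% were DEx in these interactions, and of the 1995 other genes with a readable name 25.8% and 11.1%. Neither is independent of how the genes were chosen, since the first shares the heroin H3.3Q5A rats with the contrast that chose Hcn2 and the saline empty rats with the one that ordered the name table, and the second shares the saline H3.3 WT rats with the latter.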

How the results depend on the processing

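No paired analysis was possible because each rat had a single treatment and a single vector. Values are log2 fold changes. Atp2b2 in H3.3Q5A vs. empty saline rats and in the interaction against H3.3 WT, Hcn2 in the interaction against empty, and the 3 correlations kept their side of the threshold and their sign in all settings run. These contrasts use rats on which the genes were chosen or the name table was ordered. Every setting reused nearly all of those rats, so holding throughout is no independent support for the contrasts.

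Heroin vs. saline in H3.3Q5A rats lay just short of the threshold for Atp2b2 and Hcn2. It passed at -0.41 (Atp2b2) and -0.65 (Hcn2) with only genes above the median by mean, only the groups compared, 1 or 3 residual factors, or both far-lying rats left out, at -0.46 and -0.71 with median centring, at -0.41 and -0.70 with array weights, at -0.45 and -0.63 with the further library as saline H3.3Q5A, and for Hcn2 at -0.61 with quantile normalization. These were 8 of 13 settings for Atp2b2 and 9 of 13 for Hcn2. In the rest it did not pass, with adjusted p up to 0.0788 and 0.0765 by limma. Single rats left out gave -0.46 to -0.35 and -0.76 to -0.57, with a call in 9 and 11 of 44 omissions.

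Atp2b2 in H3.3Q5A vs. empty heroin rats was no longer DEx at -0.36 without the gene filter, with only the groups compared, the log2 read total as covariate, voom or the further library as saline H3.3 WT, and at -0.28 with quantile normalization (-0.42 to -0.29 with single rats left out). Against H3.3 WT it was lost at -0.41 with only the groups compared and at -0.34 without both far-lying rats (-0.47 to -0.34). Hcn2 in H3.3Q5A vs. empty saline rats ranged from 0.62 to 0.79.

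Scn3a in H3.3Q5A vs. empty saline rats and in the interaction against empty became DEx at -0.32 and 0.39 with only genes above the median or 1 or 3 residual factors. It also did so at -0.35 and 0.43 with quantile normalization, and at -0.35 and 0.45 with array weights. The same held at -0.36 and 0.42 with the further library as saline H3.3Q5A, and at -0.39 and 0.46 without both far-lying rats. Single rats left out gave -0.39 to -0.26 and 0.32 to 0.46. In each contrast 7 of 13 settings and 6 of 44 single-rat omissions passed, and the adjusted p reached 0.168 and 0.161 by limma.

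With 3 residual factors, Hcn2 also passed in heroin vs. saline empty rats (0.32), H3.3Q5A vs. empty heroin rats (-0.29), H3.3 WT vs. empty heroin rats (0.33) and H3.3Q5A vs. H3.3 WT saline rats (0.21), Atp2b2 in heroin vs. saline H3.3 WT rats (0.32, also with 1 factor; 0.25 to 0.36 with single rats left out) and H3.3Q5A vs. H3.3 WT saline rats (0.31), and Scn3a against H3.3 WT in heroin rats (0.22) and in the interaction (0.26). Such factors are taken from the residuals and shrink the error by construction.

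Signs changed near 0. Scn3a was 0.0074 in heroin vs. saline H3.3 WT rats without both far-lying rats (-0.11 to 0.0074 with single rats left out), -0.014 in H3.3Q5A vs. empty heroin rats and 0.012 in H3.3Q5A vs. H3.3 WT saline rats with median centring (-0.088 to 0.018 with single rats left out). Atp2b2 in H3.3 WT vs. empty heroin rats was -0.017 without both far-lying rats, and -0.017 to 0.12 with single rats left out. The causes were not tested.

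Counts of DEx genes moved further than the members. Over all settings they ran from 0 to 2322 (35 as reported) for heroin vs. saline with empty, 183 to 1862 (620) with H3.3 WT and 0 to 2412 (114) with H3.3Q5A, 101 to 2388 (724) and 0 to 2190 (611) for H3.3Q5A vs. empty and H3.3 WT in heroin rats, 166 to 3146 (1116) and 0 to 1292 (2) in saline rats, and 2254 to 5327 (3149) and 1185 to 3760 (1790) for the interactions against empty and H3.3 WT.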

Other observations

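The saline library that the labels place in 2 groups, numbered 48, had a deposited value of 15.03 for Atp2b2, 13.19 for Hcn2 and 11.32 for Scn3a.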
